A study of Mus musculus with 6 samples.

Results

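Genes that build centrosomes and centrioles were examined in the soft palate of mouse embryos at E14.0. The set held every gene of the deposited table whose symbol is Cep followed by digits, without Cep290, Cep164, Cep83, Cep89 and symbols ending in os, plus Plk4, Sass6, Stil, Cenpj, Cntrob, Cntln, Pcnt, Pcm1, Cdk5rap2, Nin, Ninl, Akap9, Poc1a, Poc1b, Poc5 and Ccp110. It came to 50 of the 21938 genes measured, 48 of them protein-coding. The other two, Cep112it and Cep112os1, are non-coding transcripts inside the Cep112 locus that the symbol rule took in. No measured value entered the choice by symbol.

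RNA was sequenced from 3 control and 3 mutant libraries. The controls (replicates 1, 2 and 3) are b-cateninfl/fl embryos, with β-catenin alleles that Cre can delete, although another label field calls them wild type. The mutants (replicates 5, 6 and 7) carry the same floxed alleles and Osr2-Cre, a recombinase made in cells that use Osr2, a gene of the palatal mesenchyme. Both groups thus share the floxed alleles and differ, per the labels, in Cre. The soft palate is the posterior, muscular part of the palate, and the tissue also holds cells in which Osr2-Cre is not active. Whether a library came from 1 embryo or several is not stated, so each p-value rests on how far these libraries spread, which may be technical. The series title names ciliary homeostasis as the process through which canonical Wnt signalling acts, and centrioles are the bases from which cilia grow.

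A centrosome is a pair of centrioles inside a cloud of pericentriolar material that anchors microtubules. In dividing cells the kinase Plk4 starts a new centriole beside each old one, on a cartwheel of Sass6 and Stil, and the new centriole is then lengthened and capped. When a cell leaves the cycle its older centriole docks at the membrane and becomes the basal body of a primary cilium, after the cap protein Ccp110 is removed. Multiciliated cells, such as those of the nasal lining, make many centrioles without dividing and use much of the same machinery.

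The values are CPM, in which the reads of each gene are scaled to the total counted in its library. Estimated from the spacing of low values, that total was 10014000 to 15080600 reads. Ctnnb1, which encodes β-catenin, was at 671.4 to 784.5 CPM in control libraries and 581.5 to 633.4 CPM in mutant libraries (adjusted p = 0.183), so the groups did not overlap but the deletion target did not pass the test. Reads outside the deleted part still count for this gene. Osr2, whose locus drives the Cre, fell from 46.9 ± 11.2 to 16.1 ± 3.22 CPM (SD, 3 libraries a group; adjusted p = 0.0285). Axin2 and Nkd1, targets of canonical Wnt signalling, had means of 53.9 and 37.1 CPM (adjusted p = 0.104) and of 35.9 and 22.7 CPM (adjusted p = 0.0513), with every mutant library below every control. Xist, made from the inactive X chromosome of females, was high in control replicate 3 and mutant replicate 7 (1188 and 2054 CPM) and at 13.1 to 17.3 CPM in the other 4 libraries. Across genes, a pair of control libraries had a Pearson correlation of log2(CPM + 1) of 0.981 to 0.986, a pair of mutant libraries 0.981 to 0.988, and a mixed pair 0.97 to 0.981.

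Centrosome genes lay mostly higher in the mutant, by modest amounts. The log2 change, of CPM + 1 from control to mutant, was above 0 for 46 of the 50, against 56.1% of all genes, and its median was 0.32 against 0.04 over all genes. In bulk tissue, fewer or more cells of a type and less or more RNA per cell cannot be told apart. None of the 50 passed an adjusted p below 0.05 in limma, where 0.479% of all genes did, and the smallest adjusted p was 0.0572. At an unadjusted p below 0.05 in limma, 31 members (62%) lay higher and 0 lower, against 13.4% and 8.07% of all genes. At an adjusted p below 0.1, 13 members lay higher, against 2.84% of all genes. That count was 0 in 4 of the 6 fits that left out a library: the smallest adjusted p of a member was 0.105 without control 1, 0.121 without control 3, 0.119 without mutant 6 and 0.234 without mutant 7. It was also 0 without an intensity trend (0.103). In 29 members every mutant library was above every control library, which held for 17.1% of all genes, and in 1 member, Poc1b, every mutant library was below (10.8% of all genes). Members are expressed above the typical gene, with mean levels of 1.96 to 492.1 CPM and a median of 40.1 CPM. Among genes with a mean of at least 1 CPM, the share higher at an unadjusted p below 0.05 in limma was 13.9%. The median level of those genes was 15.1 CPM, so they are not matched to the members in level.

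These counts moved with single libraries. Without mutant replicate 7 there were 17 members higher at an unadjusted p below 0.05 in limma (8.58% of all genes), and without control replicate 3 there were 20 (9.9% of all genes). Those are the libraries with high Xist. In the other 4 libraries, a comparison chosen after the data were seen, 14 members lay higher (5.65% of all genes), the median log2 change was 0.22, and 44 of 50 changes were above 0. The smallest adjusted p of a member was 0.385 there.

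**Figure D1:**
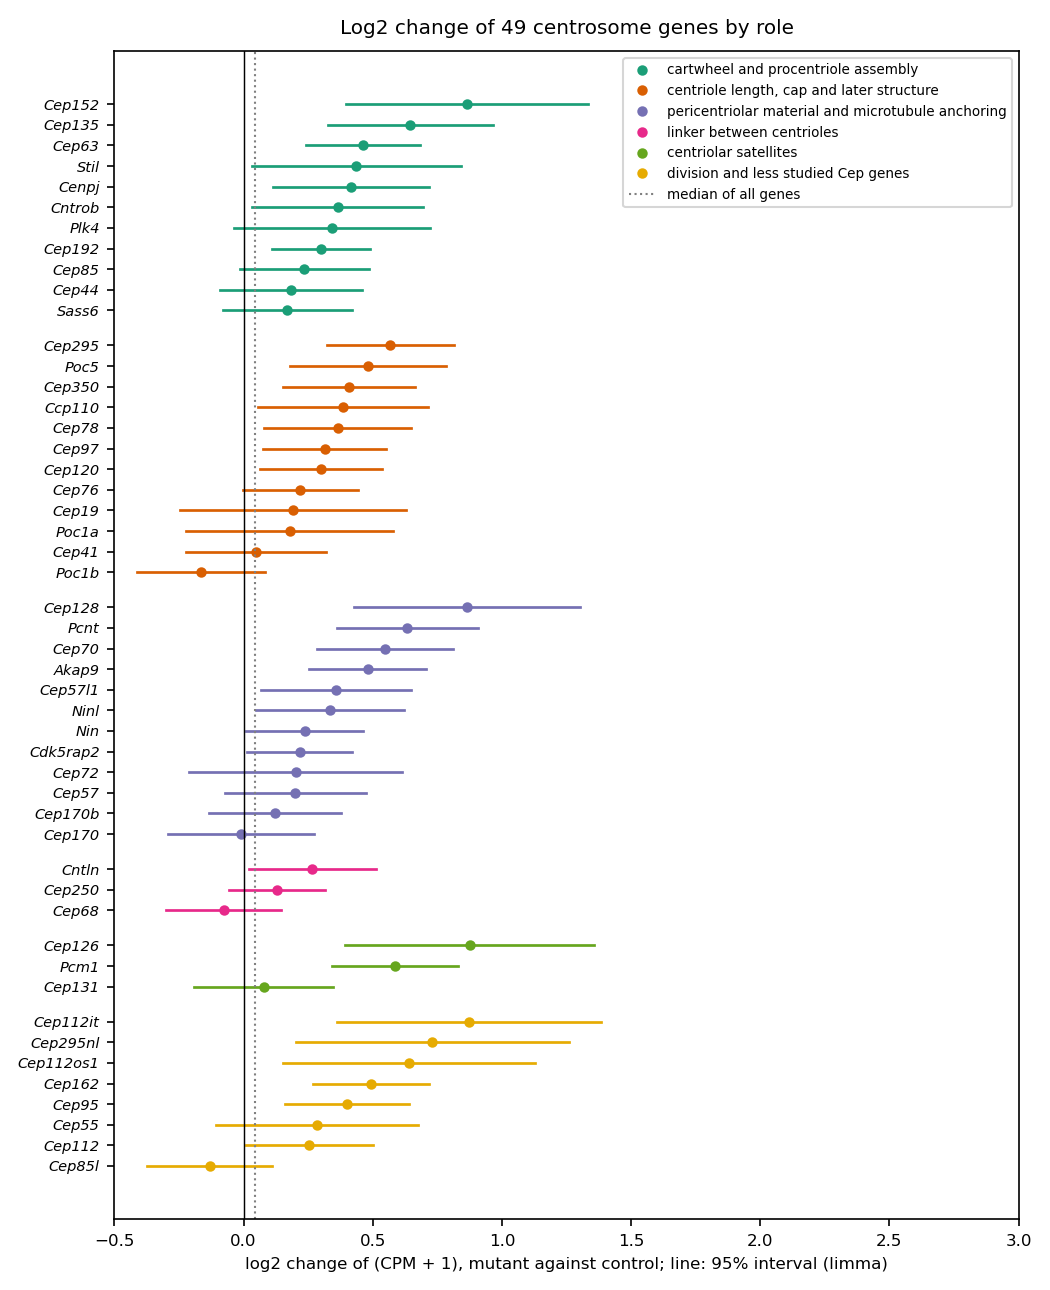
Log2 change of CPM + 1 from control to mutant (x axis) for 49 of the 50 centrosome genes (y axis), grouped by role; points are limma estimates from 3 against 3 libraries, lines their 95% intervals, not adjusted for the number of genes, and the dotted line is the median of all genes. Points of 45 genes lie to the right of 0, and Cep126, Cep112it, Cep152 and Cep128 lie furthest out at 0.86 to 0.88.

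Promoters of the members were searched for 4 motifs, since many centrosome genes are known to be transcribed in step with the cell cycle or under ciliary RFX factors. RefSeq windows (GRCm38.p6) matched 40 members with 49 start sites, and the 250 bases before each start were read on both strands. TTCCCGC, a core of E2F sites, was in 12 of 49 windows (24.5%), against 3.82% of all 32851 windows and 6.56% of windows of coding genes with a mean of at least 1 CPM. CCAAT was in 36.7% of member windows (33.8% of all windows and 34.9% of those of coding genes at that level). TTTGAA, the core of the cell cycle homology region, was in 12.2% (16% and 10.7%). GTTGCC, part of the X-box bound by RFX factors, was in 10.2% (10.4% and 10.7%). Among 11 members with the E2F core, 6 were higher by an unadjusted limma p below 0.05 (13.4% of all genes). Their median log2 change was 0.27 (0.04 over all genes). Among 29 members without the E2F core, 17 were higher by that measure, and their median was 0.31. The difference between these sets of members was not tested. A match is a run of letters, not a shown binding site.

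The windows of 3 members whose groups were apart and of Plk4, whose groups overlapped, are printed 5′ to 3′ on the strand of the gene because each carries the E2F core, in capitals, on either strand. They are Pcnt (chr10:76442913-76443162, minus strand), Cep152 (chr2:125625114-125625363, minus strand), Cep128 (chr12:91384410-91384659, minus strand) and Plk4 (chr3:40799701-40799950, plus strand). The core begins 19 bases before the start in Pcnt, 174 in Cep152, 212 in Cep128 and 120 in Plk4. Other members with the core are not printed. Among them are Cep70, whose groups were apart, and Cep170 and Cep41, whose groups overlapped.
Pcnt: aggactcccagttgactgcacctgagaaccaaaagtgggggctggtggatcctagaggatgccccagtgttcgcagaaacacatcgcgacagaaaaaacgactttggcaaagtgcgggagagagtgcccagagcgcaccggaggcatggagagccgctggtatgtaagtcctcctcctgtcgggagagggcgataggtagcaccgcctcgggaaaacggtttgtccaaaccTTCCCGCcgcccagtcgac
Cep152: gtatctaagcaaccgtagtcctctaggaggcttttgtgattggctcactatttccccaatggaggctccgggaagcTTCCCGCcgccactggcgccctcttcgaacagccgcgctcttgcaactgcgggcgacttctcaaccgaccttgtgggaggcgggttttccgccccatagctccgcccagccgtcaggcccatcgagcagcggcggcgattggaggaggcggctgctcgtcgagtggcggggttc
Cep128: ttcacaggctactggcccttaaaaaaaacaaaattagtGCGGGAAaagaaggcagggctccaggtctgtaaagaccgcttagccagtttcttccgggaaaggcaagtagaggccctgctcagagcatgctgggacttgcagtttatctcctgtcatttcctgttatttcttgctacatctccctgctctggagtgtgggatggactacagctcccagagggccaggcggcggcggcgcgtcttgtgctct
Plk4: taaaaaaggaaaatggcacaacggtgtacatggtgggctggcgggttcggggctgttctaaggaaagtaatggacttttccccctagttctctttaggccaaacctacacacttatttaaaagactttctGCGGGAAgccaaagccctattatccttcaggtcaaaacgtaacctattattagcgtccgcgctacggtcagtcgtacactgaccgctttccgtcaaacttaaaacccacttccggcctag

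The genes of cartwheel and procentriole assembly, 11 in all, had log2 changes of 0.17 to 0.87, all above 0. Of these, 7 lay higher at an unadjusted limma p below 0.05 (13.4% of all genes). In 6 every mutant library was above every control (17.1% of all genes). Cep152 and Cep63 form the ring around the parent centriole to which Plk4 is recruited. Cep152 measured 44.5, 47.8 and 30.4 CPM in control libraries and 68.8, 60.7 and 97.0 CPM in mutant libraries. Its lowest mutant library was above its highest control, and mean levels were 40.9 ± 9.21 and 75.5 ± 19.1 CPM (± SD, 3 libraries a group; log2 change 0.87 ± 0.21 SE, adjusted p = 0.0809). Cep63 measured 36.2, 32.8 and 35.5 CPM in control libraries and 46.1, 47.0 and 52.1 CPM in mutant libraries (log2 change 0.46 ± 0.10, adjusted p = 0.0692). Cep135, a cartwheel component, measured 49.9, 53.8 and 40.6 CPM in control libraries and 72.4, 66.4 and 88.7 CPM in mutant libraries (0.65 ± 0.14, adjusted p = 0.0723). In all 3 genes the groups were apart, and mutant replicate 7 was the highest library.

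Plk4, Stil and Sass6 had smaller log2 changes than Cep152, Cep63 and Cep135, and none of them had groups apart. Plk4, the kinase that starts duplication, measured 86.4, 100.3 and 63.1 CPM in control libraries and 99.6, 94.5 and 119.5 CPM in mutant libraries, and control replicate 2 lay above mutant replicates 5 and 6 (log2 change 0.34 ± 0.17, adjusted p = 0.275). Stil, which binds Sass6 and is a Plk4 substrate, measured 28.9, 40.7 and 24.5 CPM in control libraries and 40.6, 38.2 and 47.5 CPM in mutant libraries (0.44 ± 0.18, adjusted p = 0.205). Sass6, the cartwheel protein, measured 27.2, 26.1 and 25.6 CPM against 31.5, 26.5 and 31.5 CPM (0.17 ± 0.11, adjusted p = 0.407). For all 3 the groups overlapped. Cep192, the scaffold that brings Plk4 and mitotic kinases to the centrosome, had tight groups that did not overlap, at 77.5 to 83.3 CPM in control libraries and 96.0 to 105.7 CPM in mutant libraries (0.30 ± 0.08, adjusted p = 0.108). Cenpj, which controls centriole length and growth of its microtubules, was at 24.9 to 30.0 CPM and 34.0 to 44.2 CPM (0.42 ± 0.13, adjusted p = 0.133), also without overlap. The means of Cntrob, a daughter centriole protein, were 29.6 and 38.1 CPM. Cep85, which binds Stil, had means of 27.2 and 32.2 CPM, and Cep44 of 21.2 and 24.2 CPM.

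**Figure D2:**
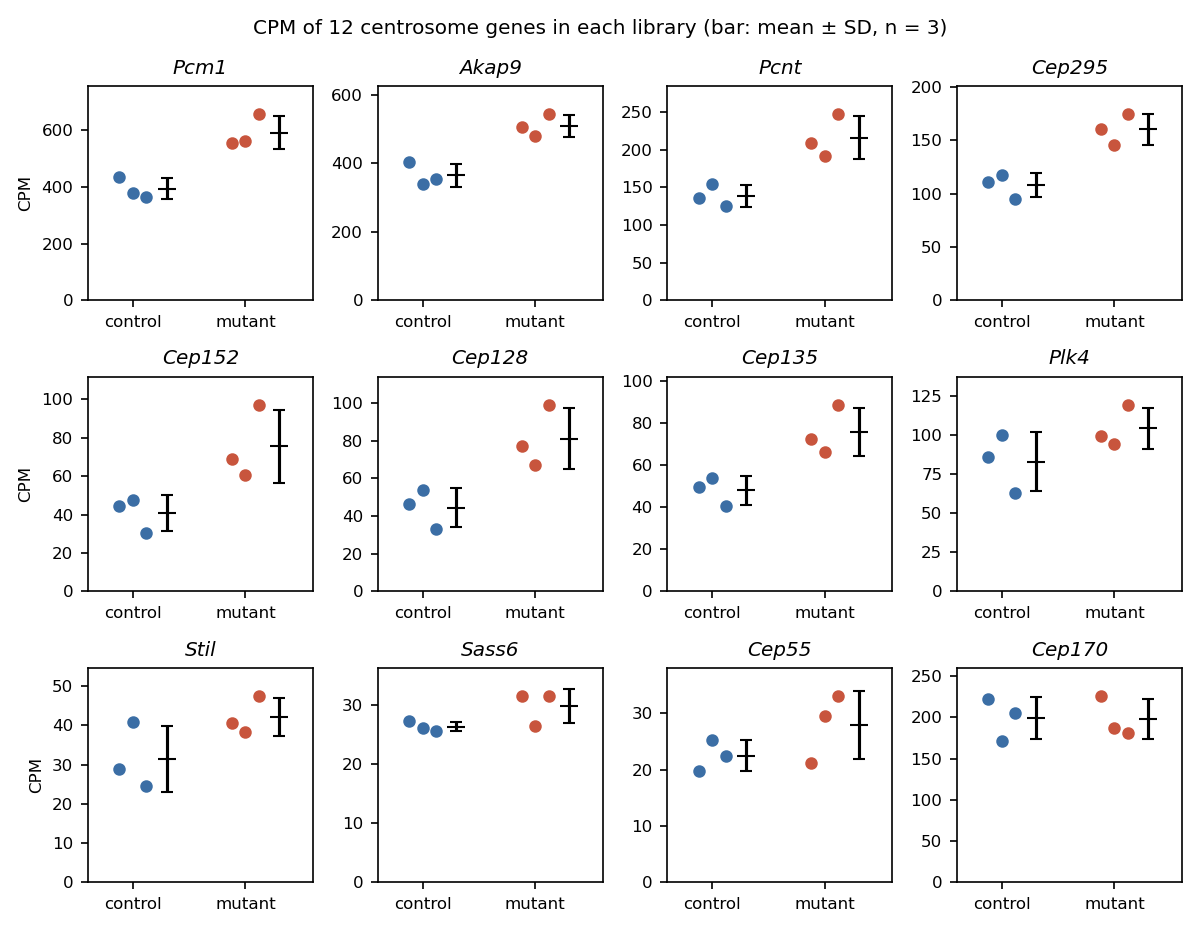
CPM (y axes, each from 0) in every control and mutant library (x axis) for 12 centrosome genes; dots are libraries in the order of replicates 1, 2, 3 and 5, 6, 7, and black bars are mean ± SD of 3. The groups are apart for Pcm1, Akap9, Pcnt, Cep295, Cep152, Cep128 and Cep135, and overlap for Plk4, Stil, Sass6, Cep55 and Cep170.

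There were 13 genes for centriole length, capping and later structure. At an unadjusted p below 0.05 in limma, 7 lay higher and 0 lower, against 13.4% and 8.07% of all genes. In 8 the mutant libraries were all above the controls (17.1% of all genes). Cep295, needed for a new centriole to become a centrosome, measured 110.7, 117.5 and 95.2 CPM in control libraries and 160.1, 145.7 and 174.4 CPM in mutant libraries (log2 change 0.57 ± 0.11, adjusted p = 0.0590). Poc5, a centrin-binding protein of the distal centriole, measured 28.1, 33.5 and 23.7 CPM against 40.05, 37.8 and 41.3 CPM (0.48 ± 0.13, adjusted p = 0.105). Cep350, a large scaffold that stabilises centriolar microtubules, was at 248.7 to 291.3 CPM and 313.8 to 404.4 CPM (0.41 ± 0.11). All 3 had groups apart.

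The cap of the centriole is made by Ccp110 with Cep97, and its removal precedes growth of a cilium. Ccp110 measured 93.02, 87.4 and 65.3 CPM in control libraries and 102.3, 96.7 and 120.9 CPM in mutant libraries (log2 change 0.39 ± 0.14, adjusted p = 0.178). Cep97 measured 32.5, 38.3 and 32.1 CPM against 42.0, 41.6 and 44.7 CPM (0.31 ± 0.10, adjusted p = 0.146). Both cap genes thus had groups that did not overlap, at an unadjusted p below 0.05. Cep120, which acts with Cenpj in elongation, had means of 70.7 and 87.3 CPM (0.30 ± 0.10), and Cep78, a protein of mature centriole walls, of 25.1 and 32.5 CPM. Cep76, which limits reduplication, was at 23.3 to 23.9 CPM and 27.0 to 28.9 CPM. Poc1b, a centriole wall protein, was the member with the largest negative change, at 20.03, 20.8 and 22.2 CPM in control libraries and 18.4, 18.5 and 19.0 CPM in mutant libraries (-0.16 ± 0.11, adjusted p = 0.416). Its paralog Poc1a was at 8.51 and 9.76 CPM, Cep41 at 23.6 and 24.3 CPM, and Cep19 at 18.6 and 21.05 CPM, with overlapping groups in all 3.

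Among 12 genes of the pericentriolar material and microtubule anchoring, 8 lay higher at an unadjusted limma p below 0.05 (13.4% of all genes). In 7 every mutant library was above every control (17.1% of all genes), and the median log2 change of the 12 was 0.29. Pcnt (pericentrin), the scaffold that extends from the centriole wall into the material, measured 135.5, 154.8 and 124.9 CPM in control libraries and 208.5, 191.6 and 247.3 CPM in mutant libraries. Mean levels were 138.4 ± 15.2 and 215.8 ± 28.5 CPM (log2 change 0.63 ± 0.12, adjusted p = 0.0578). Akap9, a scaffold of the centrosome and Golgi that holds signalling kinases, measured 402.6, 338.2 and 354.6 CPM against 504.5, 478.5 and 543.7 CPM (0.48 ± 0.10, adjusted p = 0.0682). Cep128, a subdistal appendage protein of the older centriole, measured 46.3, 53.7 and 33.2 CPM against 77.3, 67.1 and 98.9 CPM (0.86 ± 0.19, adjusted p = 0.0759). Cep70, a centrosome protein that binds γ-tubulin, was at 20.1 to 24.3 CPM and 30.1 to 34.4 CPM (0.55 ± 0.12, adjusted p = 0.0693). In these 4 genes the groups did not overlap.

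The other anchoring genes had smaller log2 changes. Cdk5rap2, which activates γ-tubulin complexes, was at 132.2 to 143.8 CPM and 147.7 to 172.4 CPM (log2 change 0.22 ± 0.09, adjusted p = 0.208). Nin (ninein), of the subdistal appendages, had means of 139.2 and 164.1 CPM (0.24 ± 0.10, adjusted p = 0.214), with control replicate 1 inside the range of the mutants. Its paralog Ninl was at 16.5 to 18.4 CPM and 19.4 to 24.3 CPM (0.33 ± 0.13, adjusted p = 0.180). Cep170, another subdistal appendage protein and among the most abundant members, measured 221.6, 171.2 and 204.9 CPM against 225.9, 186.6 and 181.3 CPM. Its log2 change was -0.01 ± 0.12 with a 95% interval of -0.29 to 0.27, and the sign turned when libraries were rescaled or left out. The paralog Cep170b had means of 92.1 and 99.8 CPM, Cep57 of 41.4 and 48.0 CPM, Cep57l1 of 12.6 and 16.5 CPM, and Cep72 of 12.1 and 13.9 CPM. Of these 4, Cep57l1 alone had groups that did not overlap.

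The linker ties the centrioles of a pair together, and its genes had the lowest median log2 change of the roles. Cep250, the main linker fibre protein, measured 121.0, 122.6 and 123.8 CPM in control libraries and 129.0, 130.0 and 144.0 CPM in mutant libraries (log2 change 0.13 ± 0.08, adjusted p = 0.393). Cntln, which attaches the fibre to the centriole, was at 72.6 to 91.7 CPM and 89.9 to 100.4 CPM (0.27 ± 0.11, adjusted p = 0.202), and Cep68 at means of 60.4 and 57.1 CPM (-0.08 ± 0.10, adjusted p = 0.684). The linker median of 0.13 rests on 3 genes, and its difference from the other roles was not tested.

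Centriolar satellites are granules that move proteins to and from the centrosome. Pcm1, their scaffold, measured 434.5, 379.6 and 365.4 CPM in control libraries and 555.1, 561.8 and 656.5 CPM in mutant libraries. Mean levels were 393.2 ± 36.5 and 591.1 ± 56.7 CPM (log2 change 0.59 ± 0.11, 95% interval 0.34 to 0.83, adjusted p = 0.0572), and the groups were well apart. Cep126, which organises microtubules at the centrosome, measured 16.9, 18.8 and 10.3 CPM against 26.6, 25.2 and 32.9 CPM (0.88 ± 0.21, adjusted p = 0.0845). Cep131, a satellite protein with a role in cilium formation, had means of 48.8 and 51.9 CPM and overlapping groups (0.08 ± 0.12, adjusted p = 0.741). Pcm1 lies on chromosome 8 at 41239752 to 41332344 (GRCm38), Pcnt on chromosome 10 at 76351263 to 76442786 and Cep152 on chromosome 2 at 125563088 to 125625113.

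The remaining 8 members act in division or are less studied. Cep55, needed for the final cut between daughter cells, measured 19.8, 25.3 and 22.5 CPM in control libraries and 21.3, 29.5 and 33.1 CPM in mutant libraries, with overlap (log2 change 0.28 ± 0.17, adjusted p = 0.373). Cep162, which links the centriole to the base of the ciliary axoneme, measured 52.7, 50.2 and 51.3 CPM against 66.3, 71.4 and 81.3 CPM (0.49 ± 0.10, adjusted p = 0.0638). Cep95 had means of 23.1 and 30.8 CPM (0.40 ± 0.11), Cep112 of 45.6 and 54.4 CPM, and Cep85l of 32.5 and 29.6 CPM. Cep295nl, at means of 5.23 and 9.22 CPM (0.73 ± 0.23, adjusted p = 0.133), lies inside Timp2 on the same strand, so reads of overlapping parts could be assigned to either gene.

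Both non-coding transcripts lay higher as well. Cep112it, on the strand of Cep112, measured 2.48, 2.99 and 2.26 CPM in control libraries and 7.25, 4.03 and 5.70 CPM in mutant libraries (0.87 ± 0.22, adjusted p = 0.0925). Cep112os1, on the opposite strand, measured 1.32, 1.43 and 1.121 CPM against 2.99, 1.78 and 3.08 CPM. Reads of the Cep112 introns cannot be told from Cep112it, which shares their strand, whether or not reads were counted by strand. No source used here says whether they were, so such reads cannot be told from Cep112os1 either. The same holds for 25 of the 50 members that overlap an annotated gene on the opposite strand.

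Levels per length set Pcm1 apart from the other members. Divided by the length of its longest annotated transcript, it was at 59.4 CPM per kilobase in the controls and 89.2 in the mutants. Cep170 (28.6 and 28.4 CPM per kilobase), Akap9 (27.8 and 38.8), Plk4 (23.9 and 30.0) and Cep350 (20.2 and 27.0) came next, and among coding members Cep72 was lowest at 2.32 and 2.67.

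**Figure D3:**
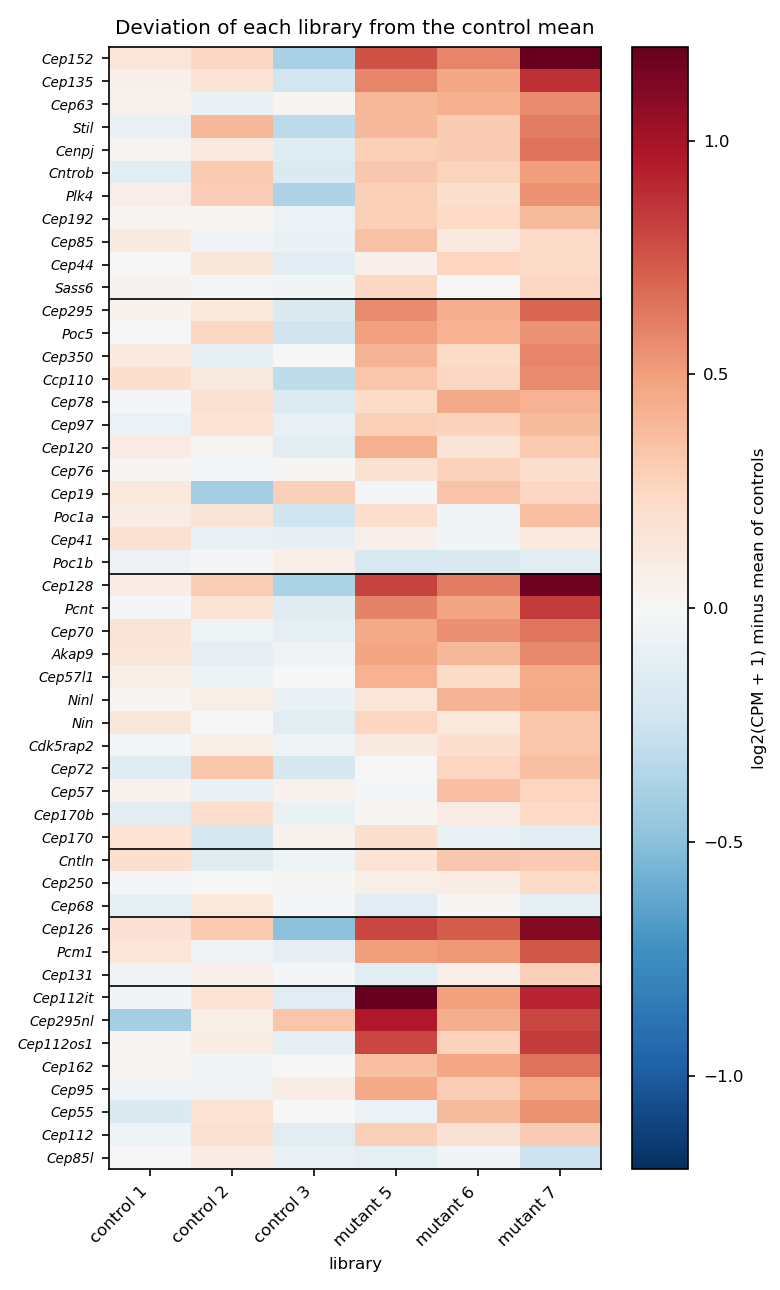
Log2(CPM + 1) of 49 centrosome genes (rows, grouped by role, with black lines between roles) in each library (columns) minus the mean of the 3 controls; red is above that mean and blue below. Mutant columns are red in most rows, most deeply in mutant 7, and control 3 is blue in most rows.

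The libraries of a group were not alike across these genes. Mutant replicate 7 was the highest mutant library for 35 of the 50 members, and its median deviation from the control mean was 0.43 on the log2 scale, against 0.28 in each of mutant replicates 5 and 6. Control replicate 3 was the lowest control for 32 members, with a median deviation of -0.09. Over all genes the median deviations were -0.02 to 0.06 in the 6 libraries. The standard error of the log2 change was largest in Cep295nl (0.23), Cep112it (0.22) and Cep112os1 (0.21), which have low levels. In Cep126, Cep152 and Cep128, with standard errors of 0.21, 0.21 and 0.19, control replicate 3 was lowest and mutant replicate 7 highest. All members together summed to 3131 to 3490 CPM in control libraries and 4077 to 4709 CPM in mutant libraries.

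Other centrosome genes formed a list of 51 that are not members. Of these, 1 passed over all genes tested (0.479% of all genes), and the median log2 change was 0.17. At an unadjusted limma p below 0.05, 24 lay higher and 0 lower, against 13.4% and 8.07% of all genes. Ccdc15, a centriole inner wall protein, rose from 23.2, 23.2 and 20.7 CPM in the controls to 37.6, 38.7 and 39.0 CPM in mutant libraries (log2 change 0.76 ± 0.10, adjusted p = 0.0285). That call was lost without control replicate 1, control replicate 3, or any 1 mutant library (adjusted p = 0.0691 to 0.147). It was also lost without an intensity trend and with sex as a covariate, where no gene of the table passed. Over all settings run its adjusted p in limma reached 0.304. Alms1, a large protein of the proximal centriole, measured 120.1 ± 19.7 and 196.7 ± 29.4 CPM (adjusted p = 0.0681), Ccdc57 13.6 and 22.6 CPM (adjusted p = 0.0710), and Ccdc66 29.6 and 39.3 CPM (adjusted p = 0.0773). In the same list, the γ-tubulin ring complex and its partners, which nucleate microtubules, had 2 of 10 genes higher at that threshold and a median of -0.08. The augmin complex, which branches spindle microtubules, had 0 of 8 and a median of -0.05. Both complexes were set apart after their values were seen, and their difference from the members was not tested.

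Few cell cycle genes lay higher in the mutant. Of 25 genes of G2 and mitosis 0 passed over all genes tested, 1 lay higher and 2 lower at an unadjusted p below 0.05 in limma, against 13.4% and 8.07% of all genes, with a median log2 change of -0.04. Mki67, the proliferation marker, measured 820.0, 844.6 and 874.6 CPM in control libraries and 753.2, 852.4 and 1067 CPM in mutant libraries. Ccna2 (cyclin A) had means of 98.2 and 78.2 CPM and Plk1 of 33.5 and 26.7 CPM. Ect2, the gene that lay higher, had means of 48.6 and 57.9 CPM. Of the 25, 11 had a log2 change above 0, against 56.1% of all genes. Every mutant library was above every control in 2, Cenpe and Cenpf, and below in 3 (17.1% and 10.8% of all genes). Of 20 genes of S phase 0 passed, 0 lay higher and 6 lower at that threshold, with a median of -0.17. Ccne1 (cyclin E) measured 37.5 ± 1.28 and 27.7 ± 1.85 CPM (adjusted p = 0.0781) and Rrm2, of nucleotide synthesis, 51.9 and 39.5 CPM. The summed S phase level was 1367 to 1475 CPM in control libraries and 1146 to 1355 CPM in mutant libraries, so these groups did not overlap, whereas the G2 and mitosis sums did.

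Most genes of the cilium base and of ciliary transport had a log2 change above 0, and most did not pass an unadjusted p below 0.05 in limma. Of 24 genes of the transition zone and distal appendages, 8 were higher and 0 lower at an unadjusted p below 0.05 in limma (median log2 change 0.21, 0 called). Of 27 genes of intraflagellar transport 12 were higher and 0 lower (median 0.25, 1 called). Of all genes, 13.4% were higher and 8.07% lower. Of the members, 31 of 50 were higher, with a median of 0.32. A log2 change above 0 was found in 21 of the 24, 25 of the 27 and 46 of the 50 members (56.1% of all genes). Every mutant library was above every control in 10, 14 and 29 of them (17.1% of all genes). The lists were not tested against each other.

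Markers of multiciliated cells lay higher as well, with a larger median. All 16 had a log2 change above 0 (56.1% of all genes), and 13 lay higher at an unadjusted limma p below 0.05 (13.4%). The median of the 16 was 0.97, with 0 called and none at 0 CPM in any library. Their summed level was 355.5, 454.6 and 189.9 CPM in control libraries and 624.7, 538.0 and 742.9 CPM in mutant libraries. Deup1, which builds the deuterosome on which multiciliated cells make centrioles, measured 40.1, 40.6 and 17.05 CPM in control libraries and 74.2, 60.1 and 84.3 CPM in mutant libraries (adjusted p = 0.0854), a gene named after its values were seen. Foxj1, the master regulator of motile cilia, measured 64.2, 104.3 and 32.5 CPM against 75.5, 79.3 and 96.2 CPM, with overlap (adjusted p = 0.472). The marker sum ordered the libraries, from low to high, as controls 3, 1, 2 and mutants 6, 5, 7. The same order was found in 9 members (Cep112os1, Cep126, Cep128, Cep135, Cep152, Cep295, Cep97, Pcnt and Poc5) and in 1.42% of all genes, an order looked for after the data were seen. The summed level of the intraflagellar transport genes put the libraries in that order too, so the match is not particular to the multiciliated markers. The part of these cells in the members' differences was not tested.

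**Figure D4:**
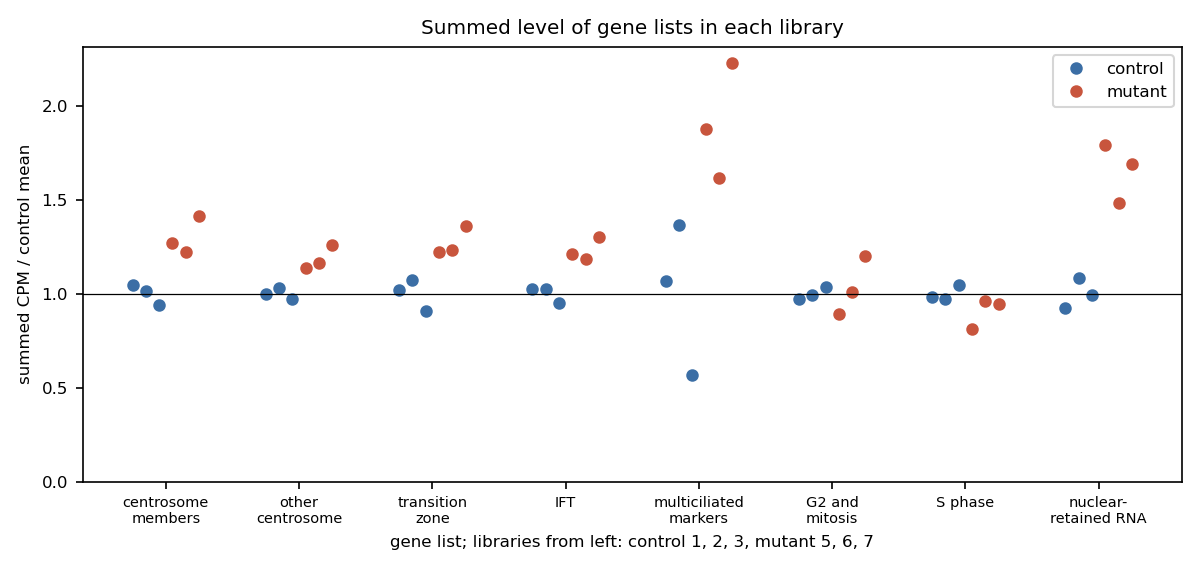
Summed CPM of 8 gene lists in each library, divided by the mean of the 3 controls (y axis, from 0); dots are libraries, blue for control and red for mutant. Mutant libraries lie above all controls for the centrosome members, other centrosome genes, transition zone, intraflagellar transport (IFT), multiciliated markers and nuclear-retained RNAs. Malat1 makes up most of the nuclear-retained sum. Mutant libraries lie below all controls for S phase genes, and on both sides of them for G2 and mitosis.

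Other cell types of the tissue differed between groups as well. Skeletal muscle markers fell, 8 of 12 over all genes tested (0.479% of all genes passed). Their sums were 6938 to 14485 CPM in control libraries and 4580 to 5684 CPM in mutant libraries. Erythroid markers had 0 of 7 called in limma and all 7 lower at an unadjusted p below 0.05 (8.07% of all genes). Their sums were 1594 to 4725 CPM in control libraries and 774.3 to 1361 CPM in mutant libraries. The sums of epithelial markers (1065 to 1747 and 1339 to 1980 CPM), endothelial markers (172.8 to 281.1 and 202.4 to 286.3 CPM), and neuronal and Schwann cell markers (199.4 to 354.6 and 88.5 to 394.5 CPM) overlapped. Macrophage markers summed to 48.1 to 55.0 and 36.6 to 47.1 CPM, and those of cartilage and bone to 298.3 to 634.1 and 674.3 to 1021 CPM. Ibsp, in the cartilage and bone sum, had means of 100.6 and 364.2 CPM with overlapping groups. All 6 cartilage and bone markers had a log2 change above 0. Of them, 1 lay higher at an unadjusted p below 0.05 in limma (13.4% of all genes), and 0 had groups apart. The part of such differences in the centrosome values was not tested.

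RNAs kept in the nucleus lay mostly higher in the mutant. Of 10 nuclear-retained RNAs, 2 rose over all genes tested (0.479% of all genes passed). At an unadjusted limma p below 0.05, 6 lay higher and 1 lower, against 13.4% and 8.07% of all genes. The sums, made up mostly of Malat1, were 11557 to 13586 CPM in control libraries and 18555 to 22376 CPM in mutant libraries. Kcnq1ot1, a long antisense RNA of an imprinted domain, rose from 728.5 ± 62.3 to 1396 ± 141 CPM (adjusted p = 0.0276). Malat1, the most abundant of them, measured 9621 ± 814 and 17018 ± 1593 CPM (adjusted p = 0.0854). Mitochondrial transcripts overlapped, at sums of 4798 to 7739 and 6536 to 7972 CPM. The part of nuclear RNA in the members' values was not tested.

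Among coding genes with a mean of at least 1 CPM, those with longer transcripts had higher median log2 changes. Coding members have long transcripts with many exons, with a median of 4950 bases and 18 exons, against 3495 bases and 8 exons for 14205 coding genes with a mean of at least 1 CPM. Those genes were split by length into 4 bins of nearly equal size, and the bin with the longest transcripts had 16.6% higher at an unadjusted p below 0.05 and a median log2 change of 0.04. The shortest bin had 5.2% and a median of -0.09. Within the longest bin 18 of 24 members lay higher, with a median of 0.36, at an unadjusted p below 0.05. From the shortest bin up, the other bins had 2 of 4, 4 of 9 and 5 of 11 members higher, with medians of 0.28, 0.28 and 0.24. Of all coding genes in those bins, 5.2%, 8.65% and 9.35% lay higher at that threshold, with medians of -0.09, -0.024 and -0.002.

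**Figure D5:**
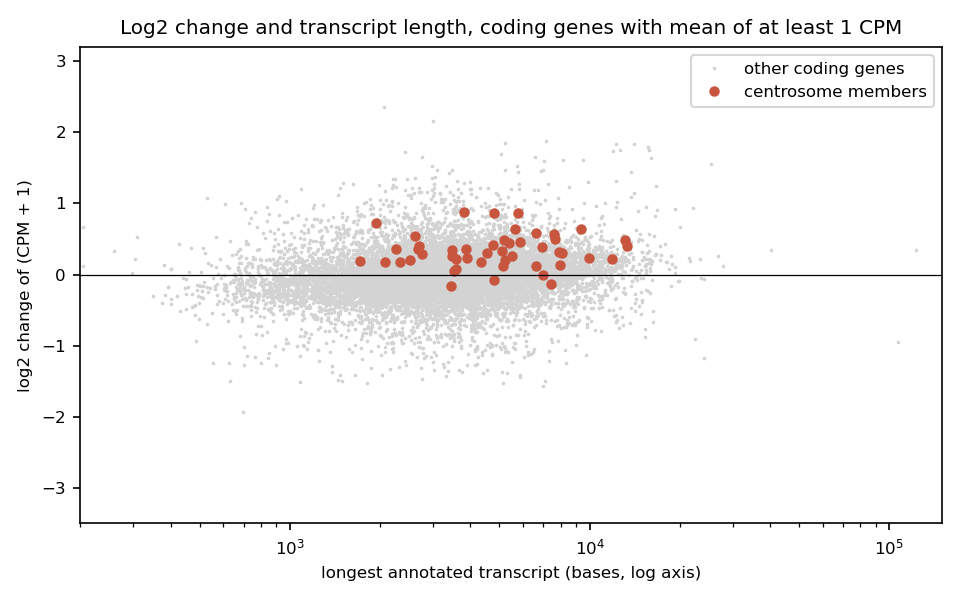
Log2 change of CPM + 1 (y axis) against the length of the longest annotated transcript in bases (x axis, log scale) for 48 coding centrosome genes (red) and the other coding genes with a mean of at least 1 CPM (grey). Most red points lie above 0 at every length, and 24 of 48 fall in the bin with the longest transcripts of 4 bins.

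The authors' deposited shorter table holds 2432 genes, each with mean levels that differ at least 1.5-fold, and its selection is not described in the sources used here. It was made from these same libraries, so it is no independent evidence. It lists 9 members (18%), against 11.1% of all genes: Pcm1, Pcnt, Cep135, Cep128, Cep152, Cep126, Cep295nl and both non-coding transcripts.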

How the data were processed

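Total RNA of soft palate from 3 control and 3 mutant embryos or pools was sequenced. STAR and the mm10 build are named, per the submitters' processing notes; no source used here gives the counting step, its annotation or its use of strand. The authors deposited CPM values with a constant of 0.0001 added, found from the values and removed; 0 columns of per-sample values were left unused. Of low values, 63.7 to 69.5% were whole reads within 0.02 of a read, so whole reads were not recovered and no count model was fitted; the depth gives 3 reads as 0.199 to 0.3 CPM, for counting error only.

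Mutant was compared with control on log2(CPM + 1) with limma 3.58.1 in R 4.3.3 (intensity trend, Benjamini-Hochberg over all 21938 genes, threshold 0.05, two-sided, no filter on low values); this scale understates the change of low genes. On simulated libraries with a coefficient of variation of 15%, it found 22.4% of the simulated 1.5-fold changes, 92.5% at 2-fold and 100% at 3-fold. It made 7 false calls among the unchanged genes of the 21938. No gene of low mean level was among those changed, so the shares found do not cover such genes. Members and lists were chosen with earlier results of these data known, and lists are described by counts and medians with no test. The genes named are 21 fixed members, the 10 with the smallest p, the 5 largest rises and up to 5 falls at 1 CPM or more, any called, and up to 4 per list; other members are given with their role. Counts cover all 50 members, of which 1 is not reported here by name. Positions and lengths come from GENCODE vM21 on GRCm38 (97.4% of genes matched by symbol). Alternatives changed the threshold, level filter, pseudocount, scaling, prior variance, a sex covariate and the libraries used.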

Additional observations from a re-analysis of the deposited data

How the results depend on the processing

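No paired analysis was possible because the labels give no batch or pairing of libraries, and control and mutant replicates share no number. The median log2 change of the 50 members stayed above 0 in every setting run, at 0.27 to 0.37 with any 1 library left out and 0.22 in the 4 libraries with low Xist. Members called numbered 0, and 13 at an adjusted p below 0.1, 1 (Pcm1, adjusted p = 0.0481) with robust fitting of the trend, and 0 to 3 with 1 library left out; the 3 were Pcnt, Cep295 and Poc5, without control replicate 2. Members higher at an unadjusted p below 0.05 in limma numbered 17 to 32 with 1 library left out (8.58 to 15.4% of all genes), 14 in the libraries with low Xist (5.65%), 23 without a trend (13.7%) and 29 with sex as a covariate (12.2%), against 31 (13.4%). Genes called over the table numbered 105, and 999 at an adjusted p below 0.1, 174 with robust fitting, 0 without a trend, 0 with sex as a covariate, 2 in the libraries with low Xist and 0 to 452 with 1 library left out. In the fits with 0 calls, 9.9 to 13.7% of all genes lay higher and 6.45 to 8.38% lower at an unadjusted p below 0.05. Cep170, at -0.01, changed sign: its log2 change was 0.012 with median scaling, 0.076 with low Xist only, and -0.113 to 0.072 with 1 library left out, above 0 for 4 of the 6. The call for Wdr60, of intraflagellar transport, was lost with a pseudocount of 0.1, without a trend, with sex as a covariate, with low Xist only and without any 1 library other than control replicate 2 (adjusted p = 0.0507 to 0.327). With mutant replicate 7 or control replicate 3 left out, fewer libraries were compared, and the cause of the lower counts was not tested. On simulated libraries of this number, with a coefficient of variation set at 15% for every gene, 22.4% of 1.5-fold changes were found. That spread was not estimated from these libraries, so the share found in these data may be another. Members that were not called may still differ by such amounts.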
